A study of Mus musculus with 4 samples.

Results

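The Ccdc genes are named for a shared feature of their products, the coiled coil, in which alpha helices wind around each other. They are not 1 gene family by descent, and their products work in the sperm flagellum, the acrosome, the centrosome, meiotic chromosomes, the spliceosome, endosomes and mitochondria. Members were taken as the protein-coding genes of GENCODE M21 (mouse build mm10) whose symbol is Ccdc followed by a digit, which gave 139 of 21951 protein-coding genes. IGF2BP3 is an RNA-binding protein with RRM and KH domains that binds many mRNAs, often in their 3′UTRs. In eCLIP-seq the RNA crosslinked to it by UV light is purified with an antibody and sequenced beside a size-matched input (SMInput), a small part of the same lysate kept before the purification. The testes came from 8-week-old wild-type C57BL/6 mice, and the lysate held germ cells and somatic cells together. There were 2 replicates, each with 1 IGF2BP3 IP and 1 SMInput library, so 4 samples in all. The labels give 2 testes for the preparation but not which animals stand behind each replicate.

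Each replicate had 1 list of read clusters, with the log2 fold change of IP over SMInput and the −log10 of its P value. Replicate 1 held 337234 clusters and replicate 2 held 216354. The library totals behind them, recovered from the listed values, were 5133438 IP and 8706391 SMInput reads in replicate 1, and 4637612 IP and 16696122 SMInput reads in replicate 2. A cluster was called a significant peak where its log2 fold change and its −log10 P were both 2 or more. With 1 SMInput read, a cluster needed 7 IP reads to pass in replicate 1 and 4 in replicate 2. Peaks of both replicates that overlapped on the same strand were joined into shared sites.

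The tissue was checked with genes that mark the cells of the testis, and all 14 markers had clusters in both replicates. The values are SMInput reads of the deepest cluster, which are not per length and so are not compared between genes. The spermatid gene Prm1, which encodes a protamine, had 358 reads in replicate 1 and 639 in replicate 2. Sycp3, of the synaptonemal complex of spermatocytes, had 41 and 72, and Zbtb16, of spermatogonia, had 5 and 7. Markers of somatic cells were present as well. Wt1, of Sertoli cells, had 16 and 50, and Cyp17a1, of Leydig cells, had 16 and 22. The other Sertoli markers were lower, with 14 and 14 for Sox9 and 1 and 2 for Amh. So were the other Leydig markers, with 3 and 8 for Star and 12 and 21 for Hsd3b1. Wt1 had 6 significant peaks, all in introns and in replicate 2.

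Of the 139 Ccdc genes, 123 had a cluster in replicate 1 (88.5%), 121 in replicate 2 (87.1%) and 116 in both (83.5%). Of the 21951 protein-coding genes, 14051 had one in replicate 1, 12841 in replicate 2 and 12312 in both. A cluster was thus listed for a larger share of Ccdc genes, and the difference was not tested. The Ccdc genes held 3310 clusters in replicate 1, of which 117 were significant (3.53%, 95% Wilson interval 2.96 to 4.22), beside 4.91% of all clusters in protein-coding genes. In replicate 2 they held 2137 clusters, of which 212 were significant (9.92%, 8.72 to 11.3), beside 13.1%. In each replicate the share lay below that of all protein-coding genes. Counted by gene, 58 of the 123 had a significant peak in replicate 1 (47.2%, beside 40.8% of protein-coding genes with a cluster) and 70 of the 121 in replicate 2 (57.9%, beside 62.8%). In both replicates a significant peak was found in 46 of the 116 (39.7%, 31.2 to 48.8), beside 39.1%, so by this count Ccdc genes were close to the background. The count fell to 21 where a peak also needed at least 10 IP reads (18.1%, 12.2 to 26.1, beside 22.1%), and to 9 with both thresholds at 3 (7.76%, 4.14 to 14.1, beside 9.43%). Of the 128 members with a cluster in either replicate, 12 had a significant peak in replicate 1 alone (9.38%, beside 6.34%) and 24 in replicate 2 alone (18.8%, beside 22.3%).

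Fewer genes had peaks at the same place. There were 19 shared sites in 14 Ccdc genes, which is 12.1% of the 116 (7.33 to 19.2), beside 16.6% of protein-coding genes with clusters in both replicates. With both thresholds at 3, 6 of the 14 genes kept one (5.17%, beside 4.91%), and with the fold change threshold lowered to a log2 of 1, 30 members had one (25.9%, beside 25.6%). The other 32 of the 46 genes (69.6%, 55.2 to 80.9) had a significant peak in each replicate, but not at overlapping positions. Of the 4814 protein-coding genes with a significant peak in both replicates, 57.5% were without a shared site, and the difference was not tested. The median IP read number of a significant Ccdc peak was 11 in replicate 1 and 7 in replicate 2, close to the 13 and 8 of all significant peaks in protein-coding genes. Of the Ccdc peaks, 37 of 117 in replicate 1 and 145 of 212 in replicate 2 had under 10 IP reads. In replicate 1, 80 of the 117 had at least 10, beside 11384 of 15990 significant peaks in all protein-coding genes. In replicate 2 it was 67 of 212, beside 10639 of 27512. With the P values adjusted by the Benjamini-Hochberg method over all clusters of a replicate, 74 Ccdc clusters passed an adjusted P of 0.05 with the same fold change in replicate 1 (2.24%, beside 3.24%) and 154 in replicate 2 (7.21%, beside 10.4%).

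Over the 932 overlapping cluster pairs in Ccdc genes, the log2 fold changes of the replicates had a Pearson r of 0.66 and a Spearman rho of 0.58, and over the 91053 pairs in all protein-coding genes 0.64 and 0.60. These are descriptions across clusters, which share genes and libraries and are not independent. Of the 932 pairs, 35 were significant in both replicates (3.76%, beside 6.94% of the 91053), 25 in replicate 1 alone (2.68%, beside 4.2%) and 54 in replicate 2 alone (5.79%, beside 8.42%). Neither replicate passed for 87.8% of the Ccdc pairs and 80.4% of all pairs.

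**Figure D1:**
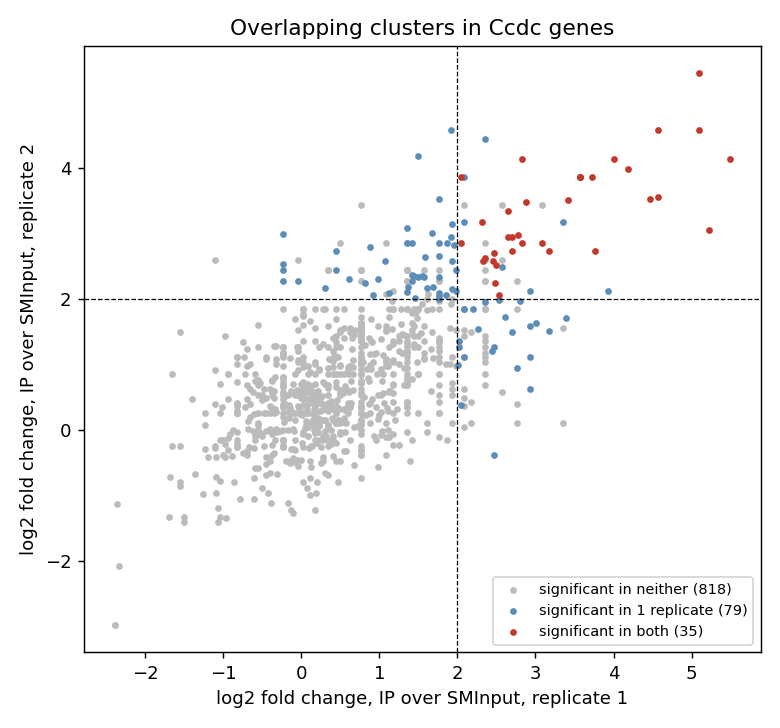
Log2 fold change of IP over SMInput in replicate 1 (horizontal) and replicate 2 (vertical) for the 932 overlapping cluster pairs in Ccdc genes, 1 point per pair, with dashed lines at the threshold of 2. The 35 pairs significant in both replicates lie in the upper right, and 818 pairs were significant in neither.

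By position in the gene, 14 of the 19 shared sites had their centre in a 3′UTR (73.7%, 51.2 to 88.2), 2 in the coding sequence (10.5%, 2.94 to 31.4) and 3 in an intron (15.8%, 5.52 to 37.6). Among the 3740 shared sites of all protein-coding genes, 65.3% were in a 3′UTR, 28.7% in the coding sequence and 3.32% in an intron. The centres of the 14 sites lay between 3 and 1799 bases after the stop codon, with a median of 459. As a share of the 3′UTR length they ran from 0.328% to 96.3%, so no one part of the 3′UTR held them all. The 3′UTRs of the 14 genes with a shared site, on 1 transcript per gene, had a median length of 944 bases. Those of the 102 others with clusters in both replicates had 426. The 14 include genes whose sites were coding or intronic. Among them Ccdc116 entered with 169 bases, while a transcript in which its site is coding has 2134. All protein-coding genes were not compared, and the difference was not tested.

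Significant peaks were also counted within each replicate, shared or not. In introns lay 41 of the 117 significant Ccdc peaks of replicate 1 (35.0%, 27.0 to 44.0) and 121 of the 212 of replicate 2 (57.1%, 50.3 to 63.6), beside 23.2% and 38.9% for all protein-coding genes. Their 3′UTR peaks numbered 47 and 64 (40.2% and 30.2%, beside 44.7% and 37.9%). Of the Ccdc clusters in 3′UTRs, 19.3% were significant in replicate 1 and 30.3% in replicate 2, against 2.3% and 2.98% of those in coding sequences. All protein-coding genes had the same order, with 19.4% and 34.5% in 3′UTRs and 5.28% and 7.96% in coding sequences, so the Ccdc shares lay below them in both regions, by little in the 3′UTRs of replicate 1. In introns the shares of clusters that were significant were near those of all genes, 1.97% beside 1.94% in replicate 1 and 10.7% beside 10.7% in replicate 2. Introns held 62.8% and 52.9% of the Ccdc clusters, beside 58.8% and 47.6% for all genes. In 5′UTRs the Ccdc shares were 10.5% of 76 clusters in replicate 1, beside 5.09%, and 8.77% of 57 in replicate 2, beside 8.63%. The differences between regions and from all genes were not tested.

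The median log2 fold change of all Ccdc clusters, significant or not, was higher in 3′UTRs than in coding sequences in both replicates. It was 1.41 against 0.35 in replicate 1 and 1.85 against 0.48 in replicate 2. For all protein-coding genes the medians were 1.76 and 0.76 in replicate 1, and 1.85 and 0.93 in replicate 2. Intron clusters of the Ccdc genes had medians of 1.76 in replicate 1 and 1.85 in replicate 2, beside 1.98 and 1.85 in all protein-coding genes. These were as high as or higher than the medians in 3′UTRs, for the Ccdc genes and for all genes. The intron clusters with recovered read numbers had a median of 2 and 3 SMInput reads.

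Ccdc89, an intronless gene on chromosome 7, had 3 shared sites, all in its 3′UTR of 973 bases. That 3′UTR held each of its significant peaks, 6 from replicate 1 and 5 from replicate 2. The site at chr7:90427832-90428000 (+), centred 220 bases after the stop codon, had a best log2 fold change of 5.49 in replicate 1 (53 IP and 2 SMInput reads) and 4.13 in replicate 2 (73 and 15 reads). The 95% counting intervals, exact Clopper-Pearson, were 3.57 to 8.57 and 3.32 to 5.04, and they overlap. Adjusted over all clusters of a replicate by Benjamini-Hochberg, the P values of these peaks were 2.94e-18 and 8.25e-41. A site at chr7:90428322-90428395 reached 4.19 and 3.98 in replicates 1 and 2, and a short site at chr7:90428016-90428061 reached 4.57 and 3.55. The median log2 fold change over its 7 clusters of replicate 1 was 4.01, and over its 6 of replicate 2 it was 3.20. It was 1 of 7 members, of 90 with at least 5 clusters in both replicates, whose median was at least 2 in both (7.78%, beside 18.1% of such protein-coding genes). The other 6, Ccdc73, Ccdc93, Ccdc122, Ccdc148, Ccdc169 and Ccdc178, had a median of 2.35 in replicate 1, on a median of 3 or 4 IP reads in each replicate, below the 7 a call needs in replicate 1. Ccdc148 had no significant peak in replicate 1, whereas 6 of the 7 clusters of Ccdc89 were called there.

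The middle 30 bases of the 3 Ccdc89 sites are shown because this 3′UTR had peaks at several places in both replicates. The sequences are from the mm10 reference, plus strand, 5′ to 3′. Capitals would mark a match to one of 4 motifs, GAACA or the motif AAACC or the motif GGACT or the motif ACACA, and these stretches hold none.
Ccdc89, chr7:90427902-90427931: gctgtaccttcaaaggtttcttaagattat
Ccdc89, chr7:90428024-90428053: ataaacatgctatcgtgggggaaaaaaggg
Ccdc89, chr7:90428344-90428373: ttttctccttaataactgagaggatttaga

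Ccdc116, on chromosome 16, held the first of the 19 sites when ordered by the smaller of the 2 replicates' best fold changes. It ranked 34 among the 3740 shared sites of all protein-coding genes, and the first Ccdc89 site ranked 150. The site lies at chr16:17141227-17141480 (−). Its strongest peak had 81 IP and 4 SMInput reads in replicate 1 (−log10 P 29.4) and 60 and 5 in replicate 2 (−log10 P 41.7), where the log2 fold change was 5.43. The peak with most IP reads had 84 IP and 6 SMInput reads in replicate 1 and 66 and 10 in replicate 2, a log2 fold change of 4.57 in each (intervals 3.39 to 6.06 and 3.60 to 5.70). All 254 bases of the site are coding in 3 of the 4 basic transcripts of the gene, where it spans codons 448 to 533 and is centred 155 bases before the stop codon. In the other transcript the same bases are an intron. A further coding peak of replicate 1, at chr16:17141712-17141787, had a log2 fold change of 2.81, and the replicate 2 cluster that overlaps it did not pass, at 1.97.

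The Ccdc116 site is printed in full, since it comes first in that order and is coding along its length in 3 transcripts. It is given on the minus strand, 5′ to 3′, with no match to the 4 motifs and a GC content of 58.7%.
Ccdc116, chr16:17141227-17141480: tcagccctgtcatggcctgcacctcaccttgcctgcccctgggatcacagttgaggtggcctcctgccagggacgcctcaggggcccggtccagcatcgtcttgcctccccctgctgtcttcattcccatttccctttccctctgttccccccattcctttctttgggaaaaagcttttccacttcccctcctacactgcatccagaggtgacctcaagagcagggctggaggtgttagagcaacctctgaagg

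The Ccdc54 site on chromosome 16 is the other one centred in coding sequence, and that gene too is a single exon, as Ccdc89 is. The site at chr16:50589888-50589956 (−) lies across the stop codon, with 45 coding bases, the stop codon included, and 24 bases of 3′UTR. Its log2 fold change was 2.48 in replicate 1 (23 IP and 7 SMInput reads) and 2.25 in replicate 2 (29 and 22). Among the 11 single-exon members, 8 had clusters in both replicates and 3 of these a significant peak in both (37.5%), beside 39.8% of the members with more exons. Over all protein-coding genes these shares were 30.7% and 39.3%. Ccdc87, the third of them, had 1 coding peak in each replicate, at 2.85 and 2.09, with no overlap.

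**Figure D2:**
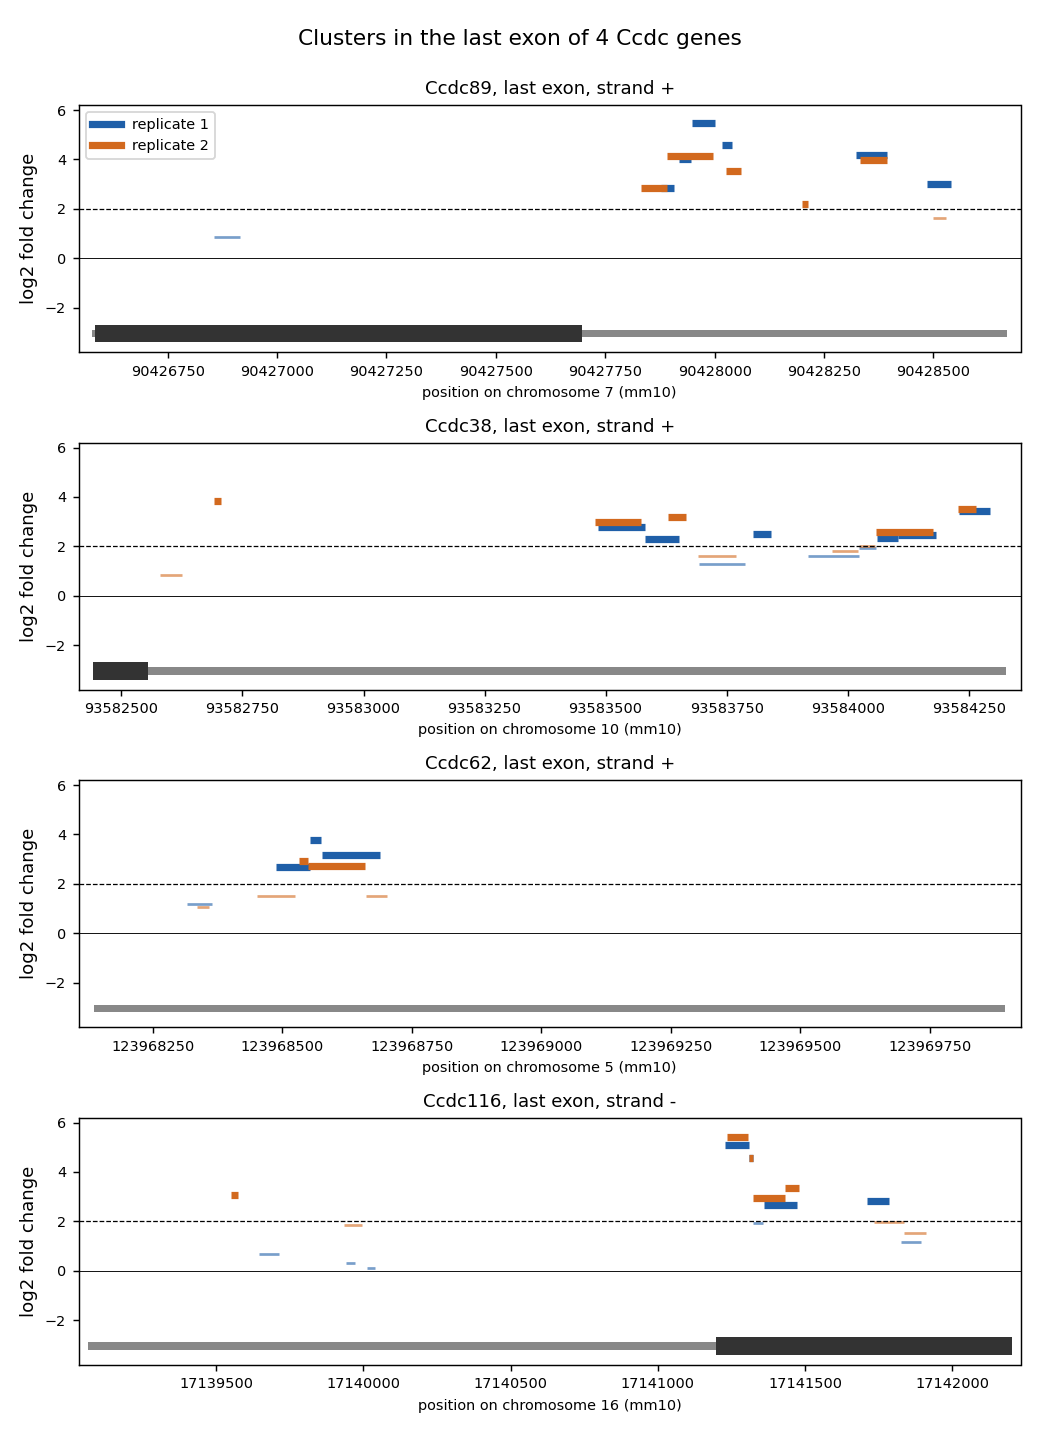
Clusters in the last exon of Ccdc89, Ccdc38, Ccdc62 and Ccdc116, drawn at their log2 fold change of IP over SMInput (vertical) and mm10 position (horizontal), with replicate 1 in blue and replicate 2 in orange. Thick bars are significant peaks, thin bars are other clusters, the dashed line is the threshold of 2, and the bar along the bottom is the exon with its coding part dark and thick. The significant peaks drawn for Ccdc89, Ccdc38 and Ccdc62 lie after the stop codon, and those of Ccdc116 lie in the coding part except for 1 of replicate 2.

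The list of roles in the sperm head, acrosome, manchette and head-tail coupling had 10 members, all with clusters in both replicates. A significant peak was found in both replicates for 5 of the 10, beside 39.1% of all protein-coding genes with clusters in both, and a shared site for 3, beside 16.6%. Those 3 were Ccdc62, a protein of acrosome formation, and Ccdc38 and Ccdc34, which are also known for the sperm flagellum, a part that the name of the list leaves out. Ccdc38 has a 3′UTR of 1772 bases, which held each of its significant peaks, 6 of replicate 1 and 5 of replicate 2. Its site nearest the transcript end, chr10:93584228-93584295 (+), is centred 66 bases from the end, with a log2 fold change of 3.42 in replicate 1 (63 IP and 10 SMInput reads) and 3.50 in replicate 2 (44 and 14). The other two, at chr10:93583479-93583667 and chr10:93584058-93584183, reached 2.78 and 2.46 in replicate 1 and 3.17 and 2.57 in replicate 2. The last of these had the most IP reads of any significant Ccdc peak, 104 in replicate 1 and 112 in replicate 2. A short 3′UTR peak of replicate 2, chr10:93582691-93582705, had a log2 fold change of 3.85 with no peak of replicate 1 over it.

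Ccdc62 had a 3′UTR site at chr5:123968487-123968688 (+), centred 490 bases after the stop codon. Its best log2 fold change was 3.76 in replicate 1 and 2.94 in replicate 2, and its deepest peaks had 69 IP and 13 SMInput reads, and 83 and 45. Ccdc34 had 2 sites close to its stop codon. The first, chr2:110044355-110044453 (+), covers 47 coding bases and 52 of the 3′UTR and had log2 fold changes of 2.35 and 2.61. The second, chr2:110044530-110044613, had 2.53 and 2.05, the latter just above the threshold.

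The remaining members of that list had no shared site. Ccdc136, an acrosomal protein, reached 92 SMInput reads in a cluster of replicate 1 and 270 in replicate 2, with a median log2 fold change of 0.26 and 0.34, and its 1 and 2 significant peaks were in introns on 8 to 10 IP reads. Ccdc33 had 2 significant peaks, both in the 5′UTR and both in replicate 2, and the stronger, chr9:58102093-58102176 (−), had a log2 fold change of 2.85 on 20 IP and 10 SMInput reads. Ccdc183 had 19 and 11 clusters, no significant peak, and a median log2 fold change of -0.56 in replicate 1 and -0.57 in replicate 2. It was the only one of the 90 members with a median below 0 in both (1.11%, beside 0.286%).

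The middle 30 bases of the Ccdc38 and Ccdc62 sites and of the second Ccdc34 site (plus strand) follow, with matches to the 4 motifs in capitals, to show where these letters do and do not occur in the sites of that list.
Ccdc38, chr10:93584247-93584276: cttgtagctttggatttcatatattcatta
Ccdc38, chr10:93583559-93583588: tgcactcagaacccACACAagatcaatcct
Ccdc38, chr10:93584106-93584135: aagaaaggtattagtatagctgcacgggag
Ccdc62, chr5:123968573-123968602: cagcttttagtgttGGACTttgctgtagtg
Ccdc34, chr2:110044557-110044586: agtttttatattttggtttttatAAACCgt

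The listed members of the axoneme and of dynein arm docking, which do not include Ccdc38 and Ccdc34, had no shared site. All 15 had clusters in both replicates, where 16.6% of all protein-coding genes with such clusters had a shared site. A significant peak was found for 8 in replicate 1 (beside 40.8%) and for 6 in replicate 2 (beside 62.8%), and 4 had one in both (beside 39.1%), which were Ccdc65, Ccdc113, Ccdc146 and Ccdc170. With at least 10 IP reads it was Ccdc65 alone, beside 22.1% of all protein-coding genes. Ccdc65, a subunit of the nexin-dynein regulatory complex, had a 3′UTR peak at chr15:98723231-98723311 (+) in replicate 2 with a log2 fold change of 3.14 (49 IP and 20 SMInput reads) and one beside it at 2.18 (68 and 54). The clusters of replicate 1 that overlapped there reached at most 1.93. Ccdc39 and Ccdc40, which together set the repeat along the ciliary axoneme, had 1 significant peak each, in different replicates. For Ccdc39 it was a 3′UTR peak of replicate 1, with a log2 fold change of 2.44 (32 and 10 reads), where the overlapping clusters of replicate 2 in the 3′UTR reached at most 1.44. For Ccdc40 it was an intron peak of replicate 2, at 2.85 on 6 IP reads. With the fold change threshold lowered to a log2 of 1, Ccdc39 and Ccdc65 gained a shared site. At that threshold 25.6% of all protein-coding genes with clusters in both replicates had one.

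Other axonemal members had clusters without a call. Ccdc114 and Ccdc151, of the outer dynein arm docking complex, Ccdc63, the testis paralog of Ccdc114, and the flagellar genes Ccdc181 and Ccdc189 had no significant peak in either replicate. They are 5 of the 15, beside 38.3% of all protein-coding genes with a cluster. Ccdc63 had 27 and 13 clusters, with up to 28 and 48 SMInput reads where read numbers were recovered, and medians of 0.76 and 0.39. Ccdc181 reached 49 and 65 SMInput reads and had medians of 0.12 and -0.02, so reads of these genes were present in both inputs.

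Their partners without a Ccdc name were compared as a list of 12 genes, of which 11 had clusters in both replicates. A significant peak was found for 4 of the 11 with a cluster in replicate 1, beside 40.8% of all protein-coding genes with a cluster, and for 9 of the 12 in replicate 2, beside 62.8%. Of the 11 with clusters in both, 4 had one in both (Iqcg, Tcte1, Fbxl13 and Armc4), close to the 39.1% of all protein-coding genes, and 1 had a shared site, beside 16.6%. That 1 was Tcte1, a subunit of the nexin-dynein regulatory complex as Ccdc65 is, with 8 significant peaks in each replicate and 4 shared sites, and a best log2 fold change of 3.01 and 3.17. Drc1, Ttc25 and Cfap53 had no significant peak, 3 of the 12 beside 38.3%. With at least 10 IP reads, 2 of the 11 had a peak in both, beside 22.1%.

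The 12 members of membrane traffic, signalling and secretion included 9 with clusters in both replicates. Of these 9, 8 had a significant peak in both, beside 39.1% of all protein-coding genes with clusters in both, and 3 had a shared site, beside 16.6%. With at least 10 IP reads, 4 of the 9 had a peak in both (Ccdc47, Ccdc50, Ccdc88c and Ccdc115), beside 22.1%. A shared site was then kept by Ccdc50 alone, beside 13.6% of all protein-coding genes with clusters in both. This minimum was applied to the lists after the data were seen. Of the 9, 3 (Ccdc88a, Ccdc88c and Ccdc91) had over 100 clusters, a range in which 86.4% of all protein-coding genes had a significant peak in both. The difference from all genes was not tested, nor the part of cluster number in it. Ccdc50, a ubiquitin-binding protein of receptor signalling, had a 3′UTR site at chr16:27446292-27446425 (+), 91 bases after the stop codon in a 3′UTR of 5951 bases. The log2 fold change was 3.73 in replicate 1 (39 IP and 5 SMInput reads) and 3.85 in replicate 2 (24 and 6). Ccdc115, of V-ATPase assembly, had a 3′UTR site at chr1:34436915-34436987 (−), with 2.46 in replicate 1 on 13 IP and 4 SMInput reads and, in replicate 2, 9 and 5 reads and an interval of 0.96 to 4.62. Ccdc93, an endosomal protein of the complex that also holds Ccdc22, had an intron site at chr1:121486975-121487078 (+), with 3.08 and 2.85 on 15 and 8 IP reads.

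The other members of the list had no shared site. Ccdc186 had 1 coding peak of replicate 1, at 3.57 on 7 IP reads, and in replicate 2 a pair of 3′UTR peaks at 2.31 and 2.17 and an intron peak. Ccdc22 had 1 cluster, in replicate 1, and no significant peak. Ccdc3 and Ccdc80, which are secreted proteins, had no cluster in either replicate. In Ccdc47, a protein of the endoplasmic reticulum, 2 of the 3 significant peaks of replicate 1 and the 1 of replicate 2 also lay in the span of Strada on the same strand, so the gene they belong to is uncertain.

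Members of the other role lists had no shared site, beside 16.6% of all protein-coding genes with clusters in both replicates. With such clusters these lists held 12, 10, 2 and 3 members, in the order given here. In the centrosome, centriole and cilium base list of 15, 12 had clusters in both replicates, and 3 of these had a significant peak in both (Ccdc14, Ccdc15 and Ccdc138), beside 39.1% of all protein-coding genes, and none with at least 10 IP reads, beside 22.1%. Of the 13 with a cluster in either replicate, 6 had no significant peak (Ccdc18, Ccdc28b, Ccdc61, Ccdc69, Ccdc112 and Ccdc120), beside 38.3%, and Ccdc68 and Ccdc78 had no cluster. Of the 10 annotated members of the spliceosome, nucleolus and ribosome list of 11, no gene had a significant peak in replicate 1, beside 40.8% of all protein-coding genes with a cluster, and 5 had one in replicate 2, beside 62.8%. Ccdc97 had 4 of these peaks, with a best log2 fold change of 2.85, and Ccdc12, Ccdc59, Ccdc84, Ccdc86 and Ccdc124 had none, 5 of 10 beside 38.3%. Of the 10, 4 had 1 to 10 clusters over both replicates and 6 had 11 to 30. In these ranges 4.01% and 27.5% of all protein-coding genes had a significant peak in both. The part of cluster number was not tested. Both meiotic members, Ccdc36, needed to start meiotic recombination, and Ccdc155, which links meiotic chromosomes to dynein, had significant intron peaks in replicate 2 alone, on 4 to 6 IP reads. Of the 4 mitochondrial members, 3 of them with clusters in both replicates, Ccdc58 and Ccdc127 had a significant peak in both replicates, on under 10 IP reads in replicate 2, and Ccdc51 and Ccdc90b in neither. With the fold change threshold lowered to a log2 of 1, Ccdc138 and Ccdc97 gained a shared site, beside 25.6% of all protein-coding genes.

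Of the 71 members on no list, 55 had clusters in both replicates. Of these, 24 had a significant peak in both, beside 39.1% of all protein-coding genes, or 12 with at least 10 IP reads, beside 22.1%, and 8 had a shared site, beside 16.6%, among them Ccdc89, Ccdc116 and Ccdc54. For Ccdc117 the calls numbered 3 in replicate 1 and 10 in replicate 2, and apart from 1 intron peak of replicate 2 they lay in its 3′UTR of 2409 bases. It had 1 shared site, chr11:5529472-5529523 (−). There the log2 fold change was 5.22 in replicate 1, on 22 IP reads and 1 SMInput read, and 3.04 in replicate 2, on 16 and 7, with intervals of 2.59 to 10.6 and 1.68 to 4.56. These intervals overlap, and the difference between the replicates was not tested. Ccdc6, the gene fused to RET in thyroid tumours, had 6 significant 3′UTR peaks in replicate 1 and 7 in replicate 2, where 2 intron peaks were added, and its 1 shared site had 2.50 and 2.51. In replicate 1 that site had a Benjamini-Hochberg adjusted P of 0.0993. Ccdc178, on chromosome 18, had a 3′UTR site 153 bases after its stop codon, with 2.88 and 3.48 on 26 and 31 IP reads. Its other peaks were not shared, 2 in the coding sequence in replicate 1 and 7 in introns in replicate 2.

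The other intron sites were in Ccdc30 and Ccdc192. Ccdc30 had one at chr4:119414892-119415066 (−) with 4.46 and 3.53 on 13 and 16 IP reads. The site of Ccdc192 had 3.57 and 3.85, on 7 and 4 IP reads and 1 SMInput read each, the fewest IP reads of any significant Ccdc peak, and its adjusted P was 0.0847 in replicate 1 and 0.0504 in replicate 2. No exon of any annotated transcript of the gene overlapped these 2 sites or that of Ccdc93.

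**Figure D3:**
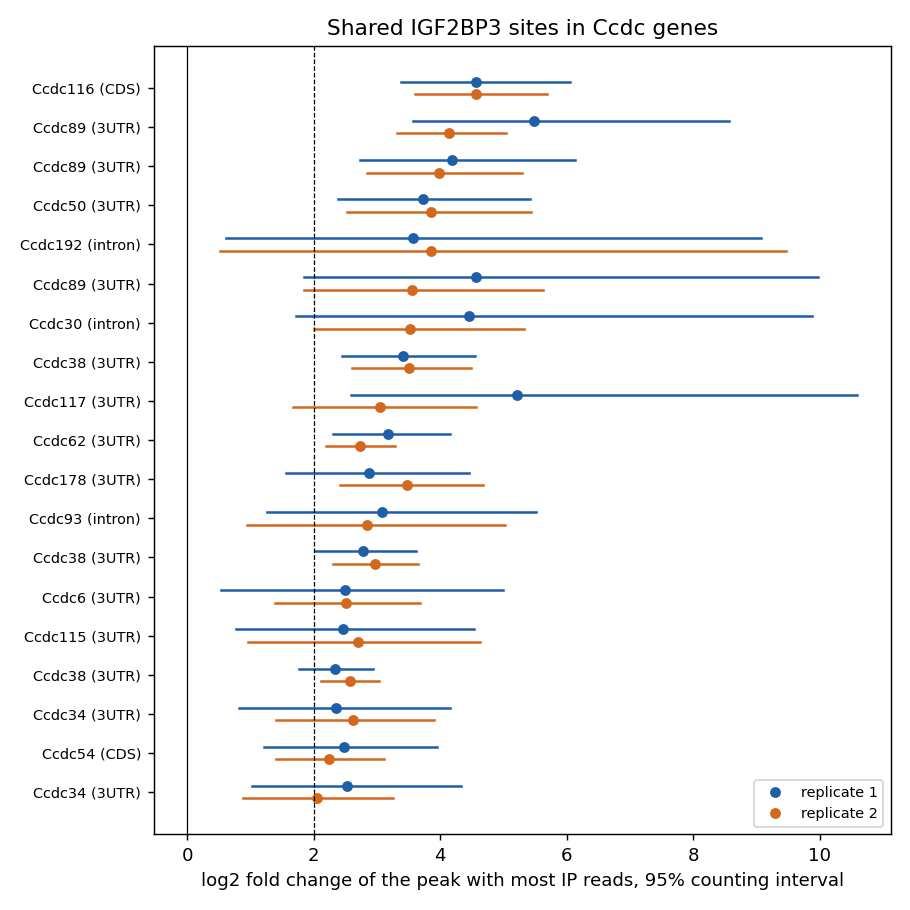
Log2 fold change of IP over SMInput (horizontal) for the 19 shared sites in Ccdc genes (vertical), ordered by the smaller of the 2 replicates' best values, with replicate 1 in blue and replicate 2 in orange. Points are the peak with most IP reads, lines its 95% Clopper-Pearson interval for counting error alone, and the dashed line is the threshold of 2. The intervals of both replicates overlap at all 19 sites and lie above 0. Each site had to pass the thresholds in both replicates, so intervals above 0 follow from the selection. It also favours their overlap, and neither is further support for the sites.

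Several members had peaks in both replicates at different places. Ccdc60 had a 5′UTR peak in each, at chr5:116288496-116288593 (−) in replicate 1 with a log2 fold change of 2.00 (26 and 11 reads) and at chr5:116288846-116288948 in replicate 2 on 50 and 42 reads. Ccdc169 had 3 coding peaks in replicate 1, the deepest at 2.96 on 23 IP and 5 SMInput reads, and 1 in the 3′UTR in replicate 2, at 2.50. Ccdc171 had 4 intron peaks in replicate 1 and 5 in replicate 2, and Ccdc73 had 2 in replicate 1 and 6 in replicate 2 beside 1 in the 3′UTR, none shared. These 4 genes were picked after their values were seen.

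Calls were set side by side within groups of paralogs. Ccdc88a, which encodes Girdin, had 4 and 6 significant peaks in replicates 1 and 2, Ccdc88c, which encodes Daple, had 2 and 8, and Ccdc88b had none. Outside the exons of its basic transcripts, Ccdc88c had 2 peaks of replicate 1 and 6 of replicate 2 within chr12:100921883-100925390 (−), a stretch chosen after its values were seen, with no overlap between the replicates. Both peaks of replicate 1 there lay over exons of transcripts outside the basic set. Ccdc7a and Ccdc7b each had peaks in both replicates and no shared site. Ccdc71l had 3 significant 3′UTR peaks in replicate 2 and none in replicate 1, and Ccdc71 had 1 in the 5′UTR in replicate 1 alone. Ccdc28a had 1 peak, in replicate 1, and Ccdc28b none. Ccdc92 had 1 and 4 peaks, and Ccdc92b had 2 clusters, both in replicate 1 and not significant. Ccdc85a, Ccdc85b and Ccdc85c had no significant peak. Ccdc130, a splicing protein whose paralog Ccdc94 is not under that symbol in the annotation used here, had 2 peaks in replicate 2.

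In all, 46 of the 128 members with a cluster in either replicate had no significant peak (35.9%, 28.1 to 44.5), beside 38.3% of all protein-coding genes with a cluster. The remaining 11 of the 139 members had no cluster (7.91%). Over all protein-coding genes, 14580 of 21951 had a cluster in either replicate. The 5 with the most clusters and no significant peak were Ccdc191 with 81 clusters over both replicates, Ccdc85c with 46, Ccdc63 with 40, Ccdc18 with 36 and Ccdc106 with 35. Among clusters with recovered read numbers, Ccdc191 had at most 9 SMInput reads in replicate 1 and 13 in replicate 2. Its highest log2 fold changes, 3.35 and 3.43, did not pass on P. The 11 without a cluster were Ccdc3, Ccdc51, Ccdc68, Ccdc78, Ccdc80, Ccdc85b, Ccdc102a, Ccdc121, Ccdc153, Ccdc190 and Ccdc194. The lists hold clusters alone, and in whole testis fewer cells of a type and less RNA per cell cannot be told apart.

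The number of clusters moved with the calls, in Ccdc genes as in all protein-coding genes. Of the 33 members with 1 to 10 clusters over both replicates, 2 had a significant peak in both (6.06%, beside 4.01% of all protein-coding genes of that range), and of the 37 with 11 to 30, 10 did (27.0%, beside 27.5%). With 31 to 100 clusters it was 21 of 44 (47.7%, beside 58.8%), and with over 100 it was 13 of 14 (92.9%, beside 86.4%). The Ccdc share was thus above the background in some ranges and below it in others. Shared sites were found in 3.03%, 8.11%, 15.9% and 21.4% of the members of these ranges, from the fewest clusters to the most, beside 2.08%, 12.9%, 24.2% and 33.8%. The part of cluster number in the calls was not tested.

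Some calls depend on overlapping genes. The 8 significant peaks of Ccdc24 in replicate 2 and the 2 in replicate 1 lay in the span of B4galt2 as well, so they cannot be assigned to 1 gene. Over the group, 4 of 117 and 13 of 212 significant peaks lay in another gene's span on the strand, and none of the 19 shared sites did.

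The sequence around the sites was searched for the 4 motifs on the strand of the site alone, in 100 bases around its centre. ACACA was found at 6 of the 19 sites (31.6%, 15.4 to 54.0), beside 10.8% of the 3740 shared sites of all protein-coding genes. Those 6 were 2 of the Ccdc89 sites, Ccdc117, Ccdc62, Ccdc93 and 1 of Ccdc38, so they come from 5 genes. In the middle 50 bases the share was 15.8%, beside 4.95%. GAACA was found at 2 sites (10.5%, beside 7.75%), both in Ccdc89. The motif AAACC was found at 2 (10.5%, beside 9.22%), in Ccdc6 and Ccdc34, and GGACT, a form of the m6A consensus, at 1 (5.26%, beside 9.87%), in Ccdc62. No motif was found at 11 of the 19. The median GC content of these stretches was 41% for Ccdc sites and 46% for all. A match is a description of the letters and not a measured contact.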

How the data were processed

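eCLIP-seq was done on testes of 8-week-old wild-type mice, with 2 replicates of 1 IP and 1 SMInput library each. Per the submitters' processing notes and methods, the authors used cutadapt, Bowtie2 and STAR with build mm10, collapsed PCR duplicates by molecular identifiers, and called clusters with Clipper. For each cluster the deposited value is the −log10 of a P value (0 where IP is not enriched, at most 400), and the deposited log2 value is the fold change of IP over SMInput of the same replicate.

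The members and lists were chosen with earlier results of these data known. Clusters were assigned by their centre to gene spans on the same strand, and to 3′UTR, coding sequence, 5′UTR or intron, in that order, by basic GENCODE M21 transcripts. Read numbers were recovered from each pair of listed values. A single solution was found for 99.7% and 99.5% of clusters listed between 0 and 400, and the step was tested on simulated data. The 35791 clusters of replicate 1 and 16261 of replicate 2 listed at 0 have no read numbers. They are left out of the medians and maxima of SMInput reads, so a gene can hold deeper clusters than those given. Named genes were the 10 with the most shared sites, the 10 with the strongest, up to 3 strongest and all members without a peak of 7 role lists, the 5 with most clusters but no peak, and 9 paralog groups. All other genes were named after their values were seen. Intervals cover counting error only, at 95%. Python 3.11.15, pandas 2.3.3, numpy 2.4.6, scipy 1.17.1, pysam 0.24.0, samtools 1.23.1 and matplotlib 3.10.9 were used.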

Additional observations from a re-analysis of the deposited data

How the results depend on the processing

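No paired analysis was possible because each deposited table already sets the IP against the SMInput of its own replicate, and the counts come from no test between groups. With both thresholds at 3, 31 Ccdc clusters were significant in replicate 1 (0.937%, beside 1.18% of those in all protein-coding genes). In replicate 2 it was 29 (1.36%, beside 2.4%). At that setting 9 genes had a peak in both (7.76%, beside 9.43%), and 8 shared sites remained in 6 genes (5.17%, beside 4.91%). With the fold change threshold lowered to a log2 of 1, there were 50 shared sites in 30 genes. Adjusted P left 74 peaks in replicate 1 (2.24% of the Ccdc clusters, beside 3.24% for all protein-coding genes). It left 12 of the 14 genes with a shared site, without Ccdc192 and Ccdc6 (10.3% of the 116, beside 14.3%). With at least 10 IP reads, replicate 2 held 67 peaks (3.14% of the Ccdc clusters, beside 5.07% for all protein-coding genes). A peak in both was found in 21 genes (18.1%, beside 22.1%). A shared site was kept by 11 of the 14 genes, without Ccdc115, Ccdc192 and Ccdc93 (9.48% of the 116, beside 13.6%). With 1 replicate left out, the number of genes with a peak ran from 58 to 70, and the share of peaks in 3′UTRs from 30.2% to 40.2%, since these count the peaks of 1 replicate. The correlation over Ccdc cluster pairs was 0.82 with at least 10 IP reads in both replicates, beside 0.74 for all protein-coding genes. Where either replicate had a −log10 P of at least 2 it was 0.54, beside 0.48. The cause of these moves was not tested. In windows of 50 bases GAACA was found at 0.0% of the 19 sites, beside 3.32% of the shared sites of all protein-coding genes. The share of shared sites in 3′UTRs stayed within its interval under the settings that kept both replicates.

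Depth limits the calls: with 1 SMInput read, a peak needed 7 IP reads in replicate 1 and 4 in replicate 2. The study's text calls the replicates biological, the labels do not say which animals they came from, and the spread between animals was not estimated. An IgG control and a further replicate named in the design text of the series were not analysed here.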
